A study of Macaca radiata with 6 samples.

Results

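The genes described here build the degradative machinery of the cell. They are the cathepsins, the subunits of the proton pump of the lysosome (the vacuolar ATPase, V-ATPase), the lysosome-associated membrane proteins (LAMP), the core autophagy proteins (ATG, ULK, WIPI and BECN1), the ATG8-like proteins (MAP1LC3 and GABARAP) and the autophagy receptor SQSTM1. Members were all probe sets whose single annotated symbol matched these family names, whatever their values, which gave 91 probe sets of 53 gene symbols among the 52865 probe sets of the array. Of these, 74 probe sets of 41 genes were bright enough to be tested, by lying at or above the median signal of their array on at least 3 of the 6 arrays. Every tested member probe set reached the median on arrays of both groups.

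The samples were corpora lutea of female bonnet monkeys (Macaca radiata), the ovarian gland that forms after ovulation and secretes progesterone. On luteal day 10 the treated monkeys received prostaglandin F2-alpha (PGF2alpha), which induces regression of the gland, as 3 intramuscular injections of 59 µg per kg of body weight. Control monkeys received phosphate-buffered saline as vehicle by the same route, and tissue was taken 24 h after treatment in both groups. Each group had 3 arrays, numbered 1 to 3 for PGF2alpha and 4 to 6 for vehicle, and the labels give 3 monkeys per group without tying an array to an animal or stating ages, so every p-value refers only to the spread among these 6 samples.

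Lysosomes digest proteins, lipids and sugars with acid hydrolases, among which the cathepsins are the main proteases. The V-ATPase acidifies them by coupling ATP hydrolysis in a cytosolic V1 sector to proton transport through a membrane V0 sector. In macroautophagy the ULK kinase complex starts a membrane cup, BECN1, WIPI and ATG2 and ATG9 proteins supply lipid and lipid signals, and a pair of ubiquitin-like conjugation reactions driven by ATG7 attaches ATG8-like proteins to the growing membrane. The closed autophagosome then fuses with a lysosome. In a regressing corpus luteum both the steroid-producing cells and the macrophages that enter the gland use this machinery.

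The values are deposited signal intensities of Microarray Suite 5.0 (MAS5), and the arrays' median signals ranged from 115 to 134. Fold changes are PGF2alpha minus vehicle on the log2(signal + 40) scale, which understates changes of dim genes. The call is limma's adjusted p under 0.05. Luteal tissue was evident in both groups from steroidogenic markers, all 9 of which with a probe set here were tested, with a summed signal of 163161 to 195136 on vehicle arrays and 80011 to 145121 on PGF2alpha arrays. CYP11A1, LHCGR and SCARB1 have no probe set named here. PGF2alpha array 3 lay nearest to the vehicle mean of the treated arrays in 21 of 41 member genes, against 10 for array 1 and 10 for array 2. Over all 9980 tested genes it did so in 4495, against 2738 and 2747.

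After PGF2alpha, 3 cathepsin genes (CTSL, CTSH and CTSA) and the V0 subunit gene ATP6V0B rose, and the conjugation genes ATG7 and ATG4A fell. These 6 were 14.6% of the 41 tested member genes, against 6.07% of all 9980 tested genes. The increases numbered 4 and the decreases 2, where 3.76% of all tested genes were called higher and 2.31% lower. The median log2 fold change of the 41 genes was -0.005, beside -0.018 over all tested genes, with 20 members positive and 21 negative. The family as a whole did not move one way. At an unadjusted p under 0.05 stood 15 of the 41, beside 24.3% of all tested genes. The groups did not overlap in 22 of the 41 genes, a share of 53.7% beside 30.9% of all tested genes. In 10 of them the treated arrays were higher (15.8% of all tested genes) and in 12 lower (15.1%). Over probe sets the shares lay closer together. The groups did not overlap in 25 of 74 member probe sets (33.8%), beside 26.8% of all tested probe sets. At an unadjusted p under 0.05 the shares were 25.7% and 21.0%.

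**Figure D1:**
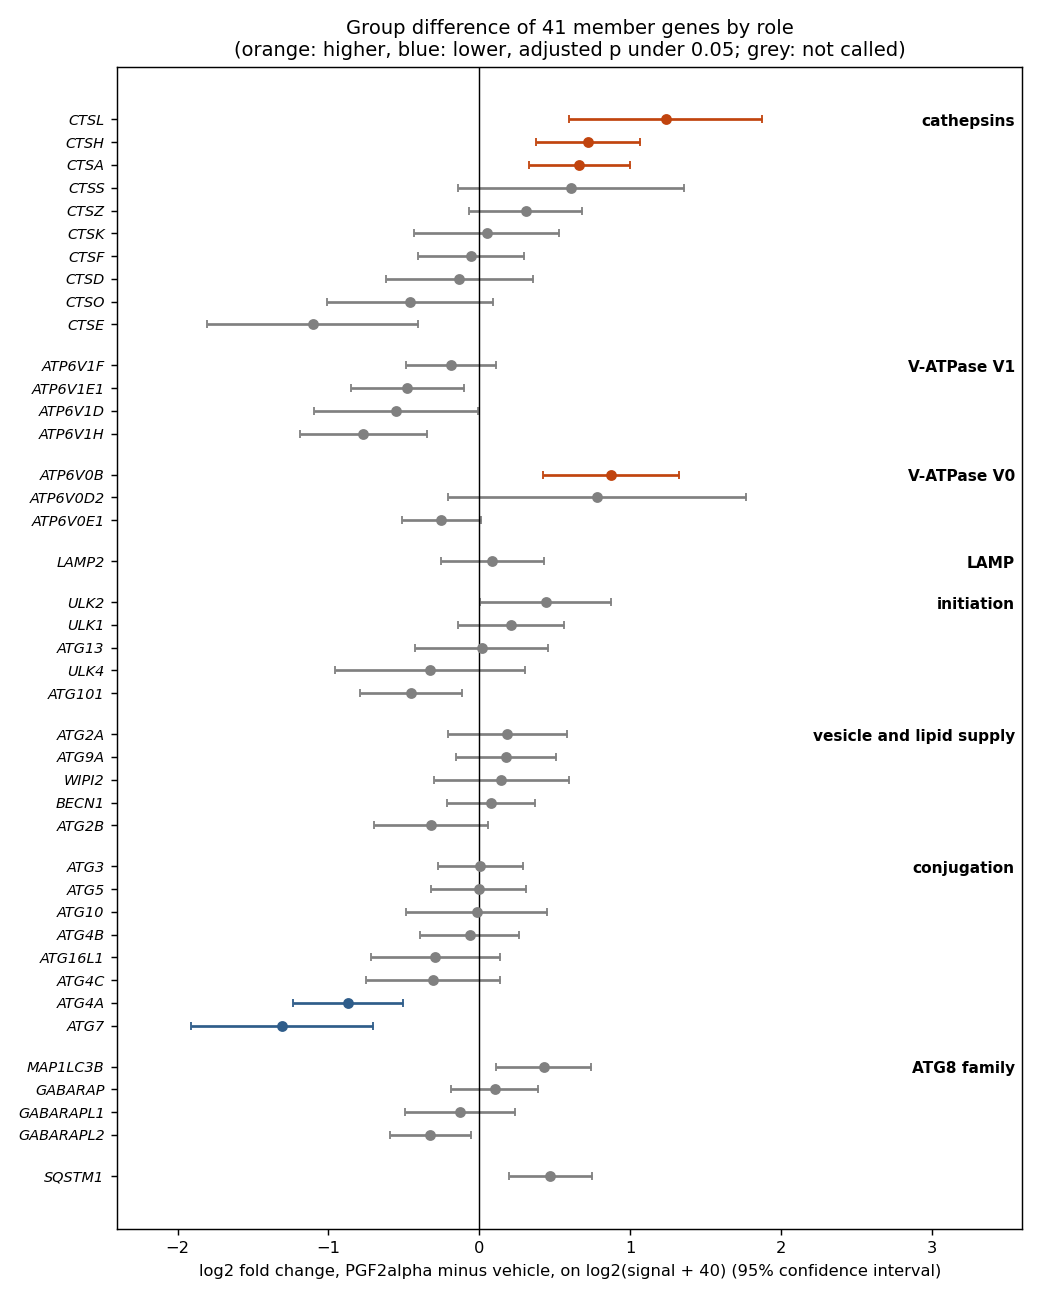
Log2 fold change of PGF2alpha over vehicle on the log2(signal + 40) scale for the 41 tested member genes, grouped by role, with 95% confidence intervals from limma (3 arrays per group). The 4 genes in orange rose, the 2 in blue fell, and the intervals of the 4 V1 subunits lie mostly or wholly below 0.

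The calls rest on few arrays. The number of called members was 0 without PGF2alpha array 1, PGF2alpha array 2 or vehicle array 6, 2 without vehicle array 4 or vehicle array 5, and 5 without PGF2alpha array 3. That last count includes CTSE, which there met the brightness filter through the vehicle arrays alone. The number was 3 with no brightness filter and 1 (ATG4A) when the variance was estimated without a trend on signal. With the arrays scaled to one median it was 6 again, with 3 higher and 3 lower, as CTSL was lost and ATP6V1H gained. The direction of each of the 6 changes was the same under all these settings, and within both hybridisation runs (arrays hybridised in the same hour). The groups did not overlap in the 6 genes, so the direction without any 1 array or within a run was fixed in advance.

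Among the cathepsins, 3 of 10 tested genes rose and 0 fell, where 3.76% of all tested genes were called higher. CTSL, which encodes the lysosomal cysteine endopeptidase cathepsin L, read 10783, 15249 and 13616 on PGF2alpha arrays 1 to 3 and 7305, 3328 and 6974 on vehicle arrays 4 to 6. The groups did not overlap, PGF2alpha array 2 was highest and vehicle array 5 was lowest. Mean CTSL signal was 5869 ± 2206 in vehicle and 13216 ± 2259.8 in PGF2alpha samples (SD, n = 3), and CTSL rose 2.35-fold on the log2(signal + 40) scale (log2 value 1.23, SE 0.283, limma's adjusted p = 0.0408). Leaving out vehicle array 5 lowered the estimate to 0.87 and kept the call (adjusted p = 0.0454), as did leaving out vehicle array 4 (adjusted p = 0.0496), and it was lost without each of the other arrays, with adjusted p up to 0.153. Scaling the arrays to one median also ended the call (adjusted p = 0.0529), as did testing without a filter (adjusted p = 0.0721). CTSV, the close paralog of CTSL, stayed below the array median on all 6 arrays.

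CTSH encodes cathepsin H, an aminopeptidase of the same papain-like family. Its signals were 5507, 4369 and 5228 after PGF2alpha and 3096, 2648 and 3387 after vehicle, with no overlap. It rose by 0.72 on the log2 scale (SE 0.153, adjusted p = 0.0322). A second CTSH probe set gave nearly the same size, 0.70 (adjusted p = 0.0922), without passing.

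CTSA encodes cathepsin A, a serine carboxypeptidase that also protects beta-galactosidase and neuraminidase in the lysosome. It read 8057, 6894 and 7208 on PGF2alpha arrays and 3939.5, 4833 and 5271 on vehicle arrays. The lowest treated array exceeded the highest vehicle array, and CTSA rose by 0.66 (SE 0.148, adjusted p = 0.0382), or 1.58-fold. With no filter CTSA was not called (adjusted p = 0.0674). Neither CTSH nor CTSA kept its call when any 1 array was left out, with adjusted p from 0.0546 to 0.117 for CTSH and 0.0529 to 0.136 for CTSA, and log2 fold changes from 0.62 to 0.82 and from 0.54 to 0.75.

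**Figure D2:**
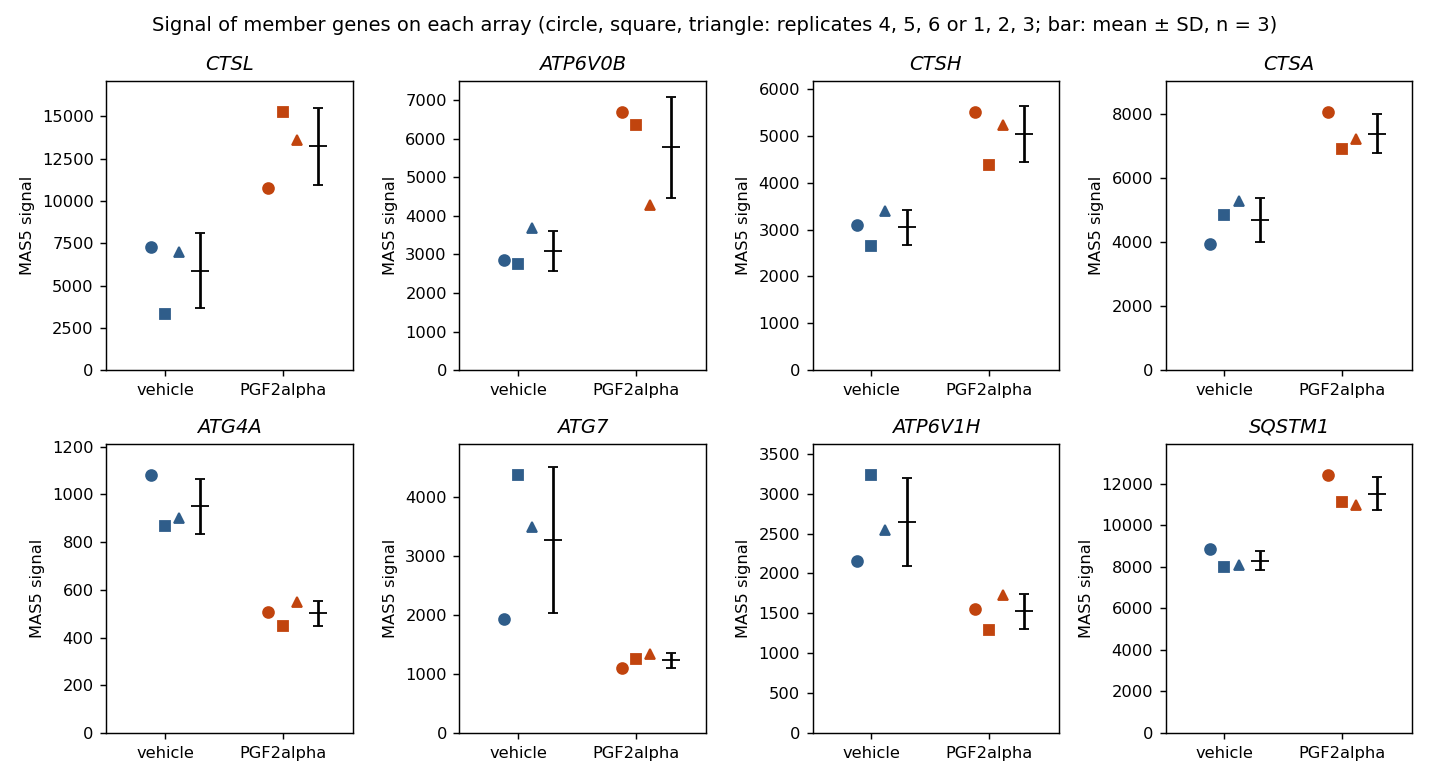
Deposited MAS5 signal (linear axis from 0) on each vehicle array (blue) and PGF2alpha array (orange) for the 6 called member genes, ATP6V1H and SQSTM1. Circle, square and triangle are replicates 4, 5 and 6 or 1, 2 and 3, and the bar is the mean ± SD of 3 arrays. The groups do not overlap in any of the 8 genes.

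The other cathepsins did not pass. CTSS, the cathepsin of antigen-presenting cells that remains active at neutral pH, read 1917, 2069 and 1935 on PGF2alpha arrays and 2127, 687 and 1426 on vehicle arrays, and the groups overlapped because vehicle array 4 was the highest of all 6. CTSS had a log2 fold change of 0.61 (95% interval -0.14 to 1.35, adjusted p = 0.339), and all 4 CTSS probe sets were positive, between 0.40 and 0.61. CTSD, the main aspartic protease of lysosomes, stood at -0.13 (interval -0.62 to 0.35, adjusted p = 0.784), with its highest signal, 9996, on vehicle array 5. CTSK, the collagen-cleaving cathepsin of osteoclasts and fibroblasts, stood at 0.05 (interval -0.43 to 0.53, adjusted p = 0.926), with both its probe sets near 0.

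Of the remaining 4 tested cathepsins CTSE had the lowest fold change, and it is singled out after its values were seen. CTSE encodes an endosomal aspartic protease and read 82.6, 87.7 and 186 after PGF2alpha and 398, 222 and 267 after vehicle, without overlap. Its log2 fold change of -1.11 did not pass (SE 0.31, adjusted p = 0.0774). Without PGF2alpha array 3 it was called (-1.39, adjusted p = 0.0285). In that fit the remaining treated signals lay below their array medians, and CTSE met the brightness filter through the vehicle arrays alone. That call therefore adds no support for a decrease. CTSO stood at -0.46, CTSF at -0.05 and CTSZ at 0.31, with adjusted p of 0.326, 0.889 and 0.333. CTSG, the neutrophil granule protease, CTSV and CTSW, the cathepsin of cytotoxic lymphocytes, were too dim to test. CTSB has no probe set named here.

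Macrophage markers were higher on the treated arrays too, and this is bulk tissue, in which more cells of a type and more RNA per cell cannot be told apart. The summed signal of 16 macrophage and monocyte markers was 37206, 21920.4 and 33372 on vehicle arrays 4 to 6 and 54362, 88341 and 60103 on PGF2alpha arrays 1 to 3. Vehicle array 5 was lowest and PGF2alpha array 2 highest, as for CTSL. Of the treated arrays CTSH and CTSA were lowest on array 2, where the markers peaked, but the second CTSH probe set was lowest on array 3. Of the vehicle arrays both CTSH probe sets were lowest on array 5, as the markers were. CTSA was lowest on vehicle array 4, the vehicle array of highest marker sum. Of these 16 markers 7 rose and 0 fell, where 3.76% of all tested genes were called higher. The other 7 markers of that list, CD163 and SPI1 among them, have no probe set named here. The 4 tested neutrophil markers (S100A8, S100A9, MMP9 and LCN2) all rose and summed to between 3324 and 6648 on vehicle arrays and between 12128 and 30554 on PGF2alpha arrays, while the 10 endothelial markers overlapped between groups (27240.2 to 30514 and 26389 to 37088). Of the other neutrophil markers CSF3R, MPO, ELANE and MMP8 were too dim to test, and FCGR3B, CXCR2 and LTF have no probe set named here. The part of these cells in the cathepsin increases was not tested. The 3-prime to 5-prime ratios of the actin control were 1.73 to 1.78 after PGF2alpha and 1.49 to 2.25 after vehicle, and overlapped.

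**Figure D3:**
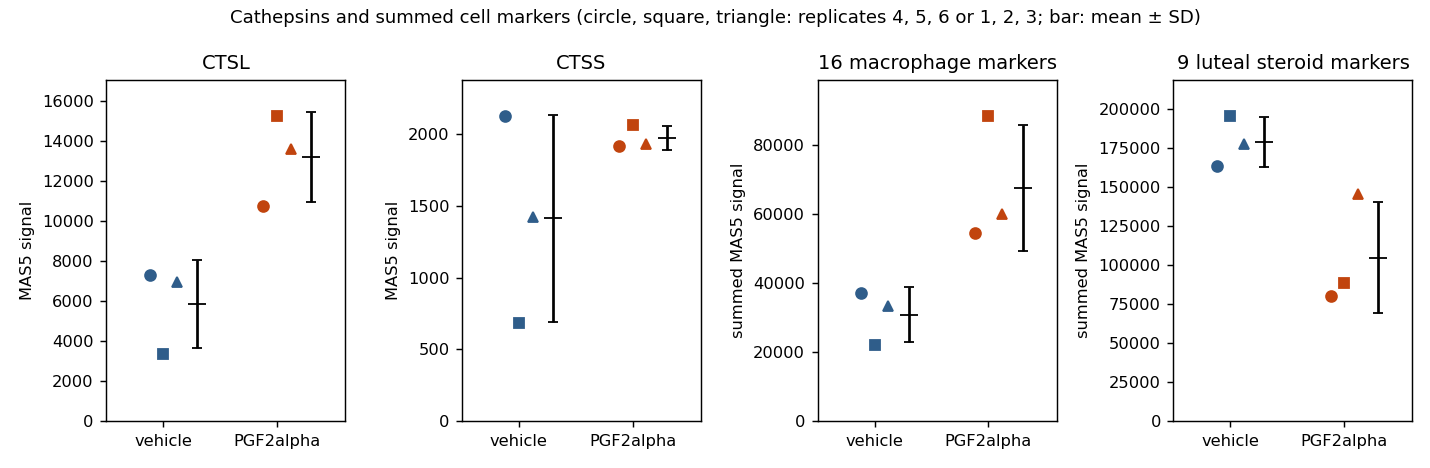
MAS5 signal of CTSL and CTSS and summed signal of 16 macrophage and monocyte markers and 9 luteal steroidogenic markers on each array (linear axes from 0; circle, square and triangle are replicates 4, 5 and 6 or 1, 2 and 3; bars are mean ± SD, n = 3). The groups separate for CTSL and for both marker sums and overlap for CTSS.

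Among the V-ATPase genes 1 of 7 tested was called, ATP6V0B, and a difference between the sectors was not tested. In the V1 sector 0 of 4 tested genes passed with limma (3 at an unadjusted p under 0.05). By their brightest probe sets all 4 had a negative log2 fold change. On these probe sets the treated arrays lay below the vehicle arrays in all 4, where 15.1% of all tested genes did so. The median of the 4 was -0.52, and it was -0.42 within hybridisation run 1 and -0.63 within run 2.

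ATP6V1H encodes the H subunit, which restrains ATP hydrolysis by free V1. It read 1553, 1290.0 and 1733 on PGF2alpha arrays and 2152, 3237 and 2548 on vehicle arrays, without overlap. The log2 fold change of ATP6V1H was -0.77 (SE 0.187) and its adjusted p lay just above the threshold of 0.05. Counting the 59 reporter probe sets of the array as controls, a choice made after the data were seen, moved it to just below 0.05. ATP6V1H was called under 7 of the 11 alternatives that kept all arrays, with adjusted p from 0.0318 for the hybridisation run taken as a block to 0.0912 without a variance trend. Of the 6 fits that left out 1 array it was called in 1, without PGF2alpha array 3 (adjusted p = 0.0438), and adjusted p reached 0.17 in the others. The second ATP6V1H probe set, which can cross-hybridise, gave -0.72 (adjusted p = 0.0547).

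ATP6V1E1, a subunit of the peripheral stalk, read 5741, 4065 and 5389 against 7430.3, 6142 and 7477 (log2 fold change -0.48, adjusted p = 0.138). ATP6V1D, part of the rotating central stalk, read 210.0, 309 and 449.6 against 470.2, 456 and 495 (-0.55, adjusted p = 0.229), with PGF2alpha array 3 close to the vehicle arrays. ATP6V1F, the other stalk subunit tested, stood at -0.19 (adjusted p = 0.47), and its probe sets can cross-hybridise. On its second probe set the groups overlapped (-0.11, adjusted p = 0.715). ATP6V1A, the catalytic subunit, and ATP6V1B2 have no probe set named here. The 4 untested V1 genes are isoforms of restricted tissues: ATP6V1B1, ATP6V1C2, ATP6V1E2 and ATP6V1G3 lay below the array median on every array.

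In the V0 sector 1 of 3 tested genes rose. ATP6V0B encodes the c'' proteolipid of the proton-carrying ring. It read 6690.2, 6344 and 4282 on PGF2alpha arrays and 2862, 2741 and 3697 on vehicle arrays, with PGF2alpha array 3 nearest to the vehicle arrays and no overlap. The log2 fold change was 0.87 (SE 0.199, adjusted p = 0.0402), or 1.83-fold. The other ATP6V0B probe set did not show it. It read 1429, 1370.0 and 1373 against 1508, 1301 and 1715, a log2 fold change of -0.11 (95% interval -0.45 to 0.24, adjusted p = 0.752), and this interval does not reach that of the brighter probe set, 0.42 to 1.32. The call of the brighter one ended when the hybridisation run was a block (adjusted p = 0.0527), with no filter (adjusted p = 0.0654) and when any array other than PGF2alpha array 3 was left out, where adjusted p lay between 0.0675 and 0.148, and it was 0.00988 without that array.

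ATP6V0D2, the d subunit isoform of osteoclasts, macrophages and kidney, varied widely within both groups. Its signals were 1025, 2036 and 1354 after PGF2alpha and 1701, 409.5 and 738 after vehicle, and the groups overlapped (0.78, 95% interval -0.21 to 1.77, adjusted p = 0.353). The second ATP6V0D2 probe set stood at only 0.22 (adjusted p = 0.667), also with overlap. The order of the vehicle arrays, with array 4 highest and array 5 lowest, was the one seen for CTSS and for the summed macrophage markers. Of the 4 tested osteoclast and giant cell markers that are no members, 1 rose, MMP9, which is also counted above as a neutrophil marker. ACP5, the tartrate-resistant phosphatase of osteoclasts, read 396, 325 and 472 after PGF2alpha and 522, 271 and 422 after vehicle, with overlap. ATP6V0E1, a small membrane subunit, stood at -0.25 (adjusted p = 0.254), with its treated signals, 19269.9, 18938 and 22002, all below the vehicle signals, 24987, 22801 and 23797. This probe set can cross-hybridise. On the other tested ATP6V0E1 probe set the groups overlapped (-0.31, adjusted p = 0.291). ATP6V0A4, the kidney isoform of the a subunit, was too dim to test, and ATP6V0D1, the ubiquitous d subunit, has no probe set named here.

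Of the LAMP genes only LAMP2, a membrane glycoprotein needed for fusion with autophagosomes and for chaperone-mediated autophagy, was tested. It read 2480.5, 2172 and 2154 against 2418, 1870.1 and 2137, and its log2 fold change of 0.09 had a 95% interval of -0.25 to 0.43 (adjusted p = 0.799). Its second probe set also stood at 0.09. LAMP3, of mature dendritic cells, and LAMP5, of neurons and plasmacytoid dendritic cells, lay below the median of every array, and LAMP1 has no probe set named here.

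The autophagy genes held the lowest fold change among the 41 tested members. Of 23 tested autophagy genes 2 fell and 0 rose, a share of 8.70% close to the 6.07% of all tested genes. Both act in ubiquitin-like conjugation. ATG7 encodes the E1-like enzyme that activates ATG12 and the ATG8-like proteins. Its brightest probe set read 1093, 1259 and 1327 on PGF2alpha arrays and 1928, 4369.7 and 3489 on vehicle arrays. The treated arrays lay close together and below the vehicle arrays, which were widely spread with array 4 lowest. Mean signal was 3263 ± 1236 in vehicle and 1226 ± 120.3 in PGF2alpha samples (SD, n = 3), and ATG7 fell, with a log2 value of -1.31 (SE 0.268, limma's adjusted p = 0.0284). Within hybridisation run 1 the difference was -1.66, and within run 2 it was -0.60. The summed luteal steroidogenic markers were also lower on all 3 treated arrays, with PGF2alpha array 3 nearest to vehicle, and their part in the ATG7 and ATG4A decreases was not tested.

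The decrease was read by 1 of 3 tested ATG7 probe sets. The second read 935, 907 and 851 against 965, 894 and 794, a log2 fold change of 0.02 (95% interval -0.31 to 0.36, adjusted p = 0.951). The third read 589, 671 and 594 against 597, 592 and 446, at 0.18 (interval -0.20 to 0.56, adjusted p = 0.603). Neither interval reaches that of the probe set that fell (-1.91 to -0.71). The call held without PGF2alpha array 3 (adjusted p = 0.0383) and vehicle array 4 (adjusted p = 0.0113) and was lost without PGF2alpha array 1 (adjusted p = 0.102), PGF2alpha array 2 (adjusted p = 0.102), vehicle array 5 (adjusted p = 0.07) and vehicle array 6 (adjusted p = 0.105).

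**Figure D4:**
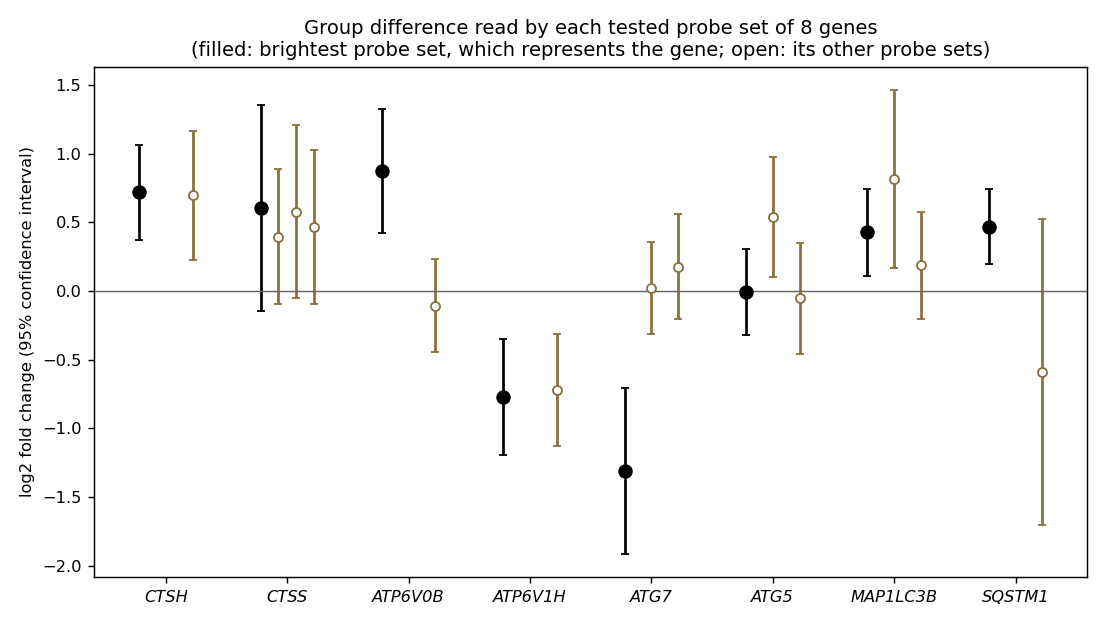
Log2 fold change of PGF2alpha over vehicle with its 95% confidence interval for every tested probe set of 8 member genes; the filled point is the brightest probe set, which represents the gene, and open points are its other probe sets. The points of CTSH, CTSS, ATP6V1H and MAP1LC3B lie on one side of 0, while those of ATP6V0B and ATG7 have intervals that do not meet.

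ATG4A encodes a cysteine protease that trims ATG8-like proteins, with a preference for the GABARAP branch. It read 508, 446 and 548 after PGF2alpha and 1083, 867 and 900.3 after vehicle, with a gap between the groups wider than the spread within either. ATG4A fell by 0.87 on the log2 scale (SE 0.162, adjusted p = 0.0216), and vehicle was 1.83-fold higher. It was the only member called under every alternative that kept all 6 arrays, with adjusted p from 0.0173 to 0.0426. It kept its call without PGF2alpha array 3 (adjusted p = 0.0225) or vehicle array 5 (adjusted p = 0.0454), and lost it without PGF2alpha array 1 (adjusted p = 0.071), PGF2alpha array 2 (adjusted p = 0.0893), vehicle array 4 (adjusted p = 0.0711) or vehicle array 6 (adjusted p = 0.0681). A single probe set is annotated to it.

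The other proteases of this step did not pass. ATG4C stood at -0.31 (95% interval -0.75 to 0.14, adjusted p = 0.421) and its second probe set at -0.37. ATG4B, the broadest of the family, stood at -0.07 (interval -0.39 to 0.26, adjusted p = 0.847), and its second, dimmer probe set at -0.51 (adjusted p = 0.353). Whether ATG4A differed from ATG4B or ATG4C in its response was not tested.

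The rest of the conjugation machinery lay nearer to 0. ATG3, the E2-like enzyme for ATG8-like proteins, read 9801, 10886 and 9409.9 against 9430.1, 9708 and 10803 (log2 fold change 0.007, interval -0.27 to 0.29). ATG5, which is joined to ATG12, stood at -0.0049 (interval -0.32 to 0.31), although a dimmer ATG5 probe set stood at 0.54 (adjusted p = 0.151) without passing. ATG10, the E2-like enzyme for ATG12, stood at -0.02. ATG16L1, which places the conjugate on the membrane, stood at -0.29 (adjusted p = 0.423), with its dimmer probe set at 0.19. The median of the 8 conjugation genes was -0.18, and ATG16L2 was too dim to test.

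Of the 4 ATG8-like genes 0 passed with limma (2 at an unadjusted p under 0.05), and they stood on both sides of 0. MAP1LC3B, whose lipid-bound protein marks autophagosomes, read 1672, 1764 and 1668 after PGF2alpha and 1207, 1186 and 1379.7 after vehicle, without overlap. The difference on the log2 scale was 0.43 (95% interval 0.11 to 0.74, adjusted p = 0.117). Its other probe sets gave 0.82 (adjusted p = 0.143) and 0.19 (adjusted p = 0.589), so all 3 were positive. GABARAPL2, which also acts in Golgi traffic, read 8739, 9032 and 7934 against 11183, 10507 and 10504, with all treated arrays below the vehicle arrays (-0.32, adjusted p = 0.157). On the second GABARAPL2 probe set the groups overlapped (-0.21, adjusted p = 0.466). GABARAP stood at 0.10 (interval -0.19 to 0.39) and GABARAPL1 at -0.13 (interval -0.49 to 0.23), with adjusted p of 0.711 and 0.705.

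SQSTM1 encodes p62, which binds ubiquitinated cargo and ATG8-like proteins and is itself degraded by autophagy. It read 12439, 11132 and 10999.6 on PGF2alpha arrays and 8850.0, 7973 and 8083 on vehicle arrays, without overlap and with a small spread in each group. Its log2 fold change of 0.47 (SE 0.121, 95% interval 0.20 to 0.74) missed the threshold (adjusted p = 0.0584) and passed only with the stricter brightness filter (adjusted p = 0.0448). A second SQSTM1 probe set lay around the array median, with signals of 112, 14.8 and 147 against 74.8, 190.4 and 160.1, and had the opposite sign (-0.59, adjusted p = 0.546).

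None of the 5 tested genes of autophagy initiation was called by limma, and 2 had an unadjusted p under 0.05. ATG101, a scaffold of the ULK complex, read 496, 487 and 554 after PGF2alpha and 759.9, 716 and 674 after vehicle, without overlap (-0.45, adjusted p = 0.121). The kinases pointed the other way, with ULK1 at 0.21 (interval -0.14 to 0.56, adjusted p = 0.492) and ULK2 at 0.44 (interval 0.01 to 0.87, adjusted p = 0.23). ATG13 stood at 0.01, with 2 of its 3 other probe sets negative. ULK4, a divergent family member, stood at -0.33, with signals from 5182 to 10160.1 that overlapped between groups. Its other tested probe set was far dimmer, with signals from 104 to 218, and had the opposite sign (0.28, adjusted p = 0.612).

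Genes that supply vesicles and lipid had log2 fold changes from -0.32 to 0.19 and 0 of 5 called by limma (0 also at an unadjusted p under 0.05). BECN1, a subunit of the class III PI3-kinase complex that a BCL2 partner can restrain, read 4443, 4404 and 4532 against 4240.2, 3849 and 4635. BECN1 stood at 0.08 (95% interval -0.22 to 0.37, adjusted p = 0.796), and its second probe set gave 0.11. The lipid transfer proteins ATG2A and ATG2B stood at 0.19 and -0.32, the lipid scramblase ATG9A at 0.17, and WIPI2, which binds phosphoinositide on the growing membrane, at 0.15 with all 4 of its probe sets positive. Their adjusted p values lay between 0.32 and 0.733.

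**Figure D5:**
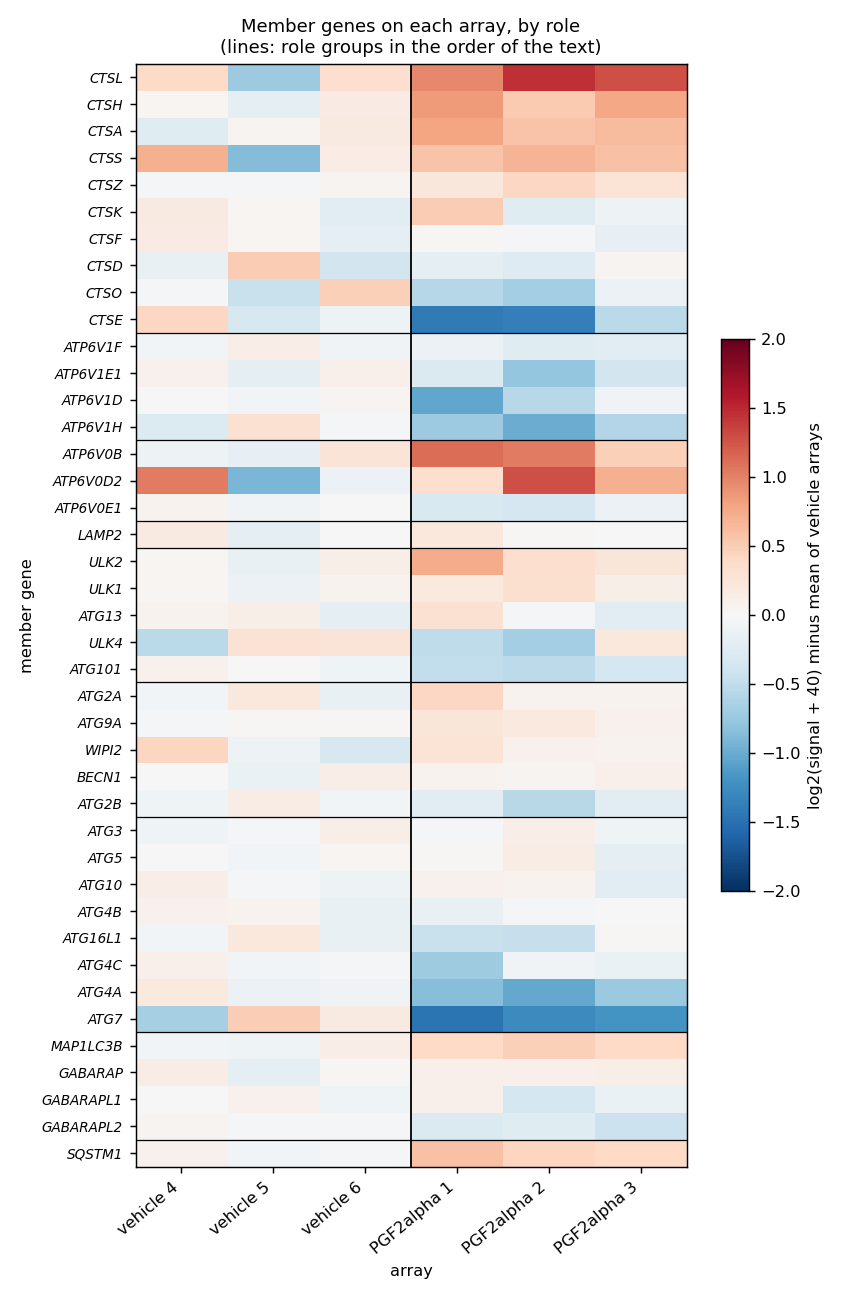
Difference of each array from the mean of the 3 vehicle arrays on the log2(signal + 40) scale (colour, from -2 to 2) for the 41 tested member genes, in role groups separated by lines from cathepsins at the top to SQSTM1 at the bottom. CTSL, CTSH and CTSA are positive and ATG7 and ATG4A negative on all 3 PGF2alpha arrays, while CTSS and ATP6V0D2 vary as much among vehicle arrays.

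Probe sets of the same gene disagreed in several members. Of the 24 genes with more than 1 tested probe set, all were of one sign in 17 and at least 1 was opposite in 7. Of the 6 called genes, CTSL, CTSA and ATG4A had a single tested probe set, CTSH had another of the same size, and ATP6V0B and ATG7 had others that stayed near 0. At the level of probe sets, 6 of 74 members were called (8.11%), beside 5.01% of all 26944 tested probe sets. A further 12 member genes had no tested probe set, and 10 of them lay below the array median on all arrays.

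Other genes of the lysosome and of autophagy, in 6 further lists, gave 4 calls among 93 tested genes (4.30%), all of them higher. This share is below the 6.07% of all tested genes called and near the 3.76% called higher. Soluble lysosomal hydrolases other than cathepsins gave 0 calls among 26 with limma (5 at an unadjusted p under 0.05), and their median log2 fold change was 0.008. The 3 of smallest p were the galactosylceramidase GALC (0.48, adjusted p = 0.066), the mannosidase MAN2B1 (0.48, adjusted p = 0.104) and the ganglioside activator GM2A (-1.11, adjusted p = 0.203). GM2A read 795, 899 and 2827 after PGF2alpha and 2943, 1807 and 4052 after vehicle, and array 3 stood at the vehicle level. It passed without PGF2alpha array 3 (-1.67, adjusted p = 0.016), while without array 1 its value was -0.78. A difference between these hydrolases and the cathepsins was not tested.

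Of 18 lysosomal membrane and transport genes 3 rose and 0 fell, where 3.76% of all tested genes were called higher. Their median was 0.28. LITAF, a late endosomal membrane protein, read 14307, 8714 and 7104 after PGF2alpha and 4989, 4275 and 3354 after vehicle (1.20, adjusted p = 0.0313). The others were the cholesterol carrier NPC2 (0.88, adjusted p = 0.0276) and CD68 (1.05, adjusted p = 0.0319), which is also a macrophage marker. NPC2 and CD68 kept their calls without PGF2alpha array 3 or vehicle array 4 and LITAF without PGF2alpha array 3, and they lost them without any other array, with adjusted p up to 0.114.

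Among 23 autophagy regulators outside the member families, 1 (DRAM1) rose and 0 fell, with a median of 0.20. DRAM1 encodes a lysosomal membrane protein induced by p53 that promotes autophagy. It read 1227, 1245 and 786 on PGF2alpha arrays and 337, 294 and 256 on vehicle arrays, so the lowest treated array was still far above the highest vehicle array. DRAM1 rose by 1.73 on the log2 scale (SE 0.209, adjusted p = 0.00589), and it kept its call without each array in turn (adjusted p from 0.00126 to 0.0388), which no member did. Its probe set can cross-hybridise. VMP1 and DRAM2, the next by p, stood at 0.57 (adjusted p = 0.0597) and 0.47 (adjusted p = 0.0934).

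The remaining lists gave 0 calls with limma. Among 6 protease inhibitors (2 at an unadjusted p under 0.05), SERPINB9 stood at 0.58 (adjusted p = 0.0542), cystatin B (CSTB) at 0.67 (adjusted p = 0.0597) and CST7 at 0.63 (adjusted p = 0.372). Among 5 selective autophagy receptors (2 at an unadjusted p under 0.05), optineurin (OPTN) stood at 0.77 (adjusted p = 0.0598), NCOA4, the ferritin receptor, at 0.30 (adjusted p = 0.23) and HDAC6 at 0.43 (adjusted p = 0.367). OPTN passed without PGF2alpha array 3 (0.96, adjusted p = 0.0201). Among 15 genes of vesicle traffic to the lysosome (3 at an unadjusted p under 0.05), RILP stood at 0.67 (adjusted p = 0.149), CHMP2A at -0.44 (adjusted p = 0.15) and VPS29 at -0.32 (adjusted p = 0.229).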

How the data were processed

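Total RNA of 6 corpora lutea was hybridised to Affymetrix Rhesus arrays, 1 array per sample, whose probes come from another macaque species. The deposited values are linear MAS5 signal intensities made by the authors (per the submitters' processing notes; version not given in the sources used here). Their 2% trimmed mean was 500.0 on all 6 arrays, so they were not normalized again. The other deposited values, in the scanner files, are settings and hybridisation times. Arrays hybridised in the same hour were taken as a run, a grouping that no label names. This placed 4 arrays in run 1 (PGF2alpha 1 and 3, vehicle 5 and 6) and 2 in run 2. Symbols came from a platform annotation that can be old, which gave 1 symbol for 24969 probe sets. No genome was used.

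Control probe sets (99) were left out. The log2(signal + 40) values of the 26944 probe sets that passed the filter were compared by limma's two-sided moderated test without covariates (lmFit and trended eBayes, limma 3.58.1, R 4.3.3), and p-values were adjusted by Benjamini-Hochberg over all of them. The brightest tested probe set stood for its gene. On simulated data the fit called 28 of 100 changes of log2 size 1 and 77 of 100 of size 2, with 5 false calls. A gene that was not called is therefore not shown to be unchanged. The number of arrays limits the precision. Detection calls were not used, so no level was set against background.

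Members and lists were chosen with earlier results of these data known. Member genes were named if called, if among the 3 of smallest p of their role, or if on a fixed list, and the 3 genes of smallest p were named for each pathway list. The other members are given so that each is accounted for. Alternatives were quantile and median scaling, pseudocounts of 10 and 160, other filters, eBayes without trend or robust, the run as a block, no cross-hybridising probe sets (ID suffix _s, _x or _a) and each array left out.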

Additional observations from a re-analysis of the deposited data

How the results depend on the processing

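No paired analysis was possible because the groups share no replicate number. Without any 1 array the number of called member genes ran from 0 to 5, that of called member probe sets from 0 to 7, that of called pathway genes from 1 to 6, and the members' median log2 fold change from -0.073 to 0.064. With no filter 3 member probe sets, 3 member genes and 2 pathway genes were called. With eBayes without trend the counts were 1, 1 and 1. With the filter at the 70th percentile 8 pathway genes were called. All other counts stayed within 1.5 times the reported ones, and no called change turned its sign. For the 6 called members this was fixed in advance in the fits without 1 array, as their groups did not overlap. Another scaling moved the median of all genes by under 0.1 on the log2 scale. Signals around the array median, such as those of CTSE and the second SQSTM1 probe set, carry folds of uncertain size.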
